A study of Mus musculus with 2 samples.

Results

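The complement components made by stromal cells of mouse limb muscle were followed in 8 genes, C1ra, C1s1, C4b, C2, C3, Cfb, C7 and Serping1, chosen by symbol from the 32285 genes listed. Single-cell RNA-seq (10x Genomics droplets) was performed on live mononuclear cells from aged C57BL/6 mice, with 1 library from mice injected with the drug Maraviroc (MVC) in a short high-dose scheme and 1 library from mice given the vehicle DMSO. Erythrocytes were lysed and dead cells were removed in the sort, intact muscle fibres were not sampled, and the number of mice behind each library was not given in the labels. The comparison asked in which muscle cell types the components were expressed and whether their levels differed between DMSO and MVC muscle. Each group held 1 library, so no test between the groups was possible, and every interval given is a 95% interval that covers counting error only. All 8 genes were detected in both libraries.

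Complement is a chain of plasma proteins that tags cells and debris for removal, made largely in the liver and also in tissues. In the classical pathway C1q binds its target, the serine proteases C1r and C1s (C1ra and C1s1 in the mouse) are activated, and they cut C4 and C2, whose fragments form a C3 convertase. The alternative pathway builds its own convertase from C3 and factor B (Cfb) and amplifies the deposit, while C7 is one of the terminal components that join into the membrane attack complex. Serping1 encodes C1 inhibitor, which blocks C1r and C1s.

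C1ra (ENSMUSG00000055172, chr6:124512405-124523443, plus strand, GRCm38 with GENCODE M21) and C1s1 (ENSMUSG00000038521, chr6:124530345-124542359, minus strand) lie tail to tail, 6901 bases apart. C4b (ENSMUSG00000073418, chr17:34728380-34743882), Cfb (ENSMUSG00000090231, chr17:34856374-34862518) and C2 (ENSMUSG00000024371, chr17:34862604-34898265) sit on the minus strand of the major histocompatibility region, where 85 bases separate Cfb from C2. C3 (ENSMUSG00000024164, chr17:57203970-57228136), C7 (ENSMUSG00000079105, chr15:4988762-5063740) and Serping1 (ENSMUSG00000023224, chr2:84765387-84775444) are also on the minus strand, each at a place of its own. In all, 3 of the members have a near copy that could take a share of their reads. Of the 50-base words of the longest transcript, 35.2% for C4b also occurred in C4a, 48.0% for C1ra in C1rb and 24.3% for C1s1 in C1s2, while Cfb and C2 shared none. The copies C4a, C1rb and C1s2 held 35, 12 and 24 unique molecular identifiers (UMIs, counted molecules) over all kept cells, against 3563 for C4b, 6279 for C1ra and 13559 for C1s1. The levels of these members are therefore uncertain to the extent that the counting left out shared reads.

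Upstream sequence was at hand for 4 of the 8 members (C1ra, C1s1, C3 and C7, from RefSeq, GRCm38.p6). The 250 bases before the transcription start are shown for C1s1 (chr6:124542360-124542609, minus strand), C3 (chr17:57228137-57228386, minus strand) and C7 (chr15:5063774-5064023, minus strand), 3 components expressed by fibroblasts. They are written 5′ to 3′ on the strand of the gene with motif matches in capitals. The C1ra window overlaps the GENCODE gene and is not printed.
C1s1: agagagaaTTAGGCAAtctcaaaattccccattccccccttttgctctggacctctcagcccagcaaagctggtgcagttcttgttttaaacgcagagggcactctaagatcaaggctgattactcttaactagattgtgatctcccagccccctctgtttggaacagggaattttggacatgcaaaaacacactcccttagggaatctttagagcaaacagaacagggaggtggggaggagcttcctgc
C3: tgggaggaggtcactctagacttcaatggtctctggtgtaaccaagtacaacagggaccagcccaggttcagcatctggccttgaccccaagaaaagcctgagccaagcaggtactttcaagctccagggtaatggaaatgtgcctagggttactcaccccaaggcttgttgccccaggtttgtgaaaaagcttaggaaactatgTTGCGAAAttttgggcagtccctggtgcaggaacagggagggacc
C7: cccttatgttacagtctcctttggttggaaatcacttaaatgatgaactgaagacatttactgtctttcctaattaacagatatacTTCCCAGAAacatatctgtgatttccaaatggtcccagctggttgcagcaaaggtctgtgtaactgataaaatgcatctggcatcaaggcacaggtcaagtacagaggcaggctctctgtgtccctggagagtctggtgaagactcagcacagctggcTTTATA
Both strands were searched for the letters TTGCNNAA, the form bound by C/EBP factors, and TTCNNNGAA, the GAS element of STAT factors. The letters TGANTCA stood for AP-1 and the start-site element was searched as TATAAA, while the ISRE-type and NF-kB motifs are given by name. E-box letters were in 66.2% of all windows and are left in lower case. C3 held a C/EBP match that began 45 bases before the start and C1s1 one that began 242 bases before it, a motif found in 9.56% of 32851 promoter windows of this length. Another C1s1 entry, with its window at chr6:124542322-124542571, held no C/EBP match. C7 held a GAS match that began 164 bases before the start and a TATA match on the opposite strand that began 6 bases before it, motifs found in 7.02% and 12.4% of the windows. AP-1, ISRE-type and NF-kB letters were in none of the 3 windows shown and in 6.75%, 2.98% and 1.41% of all windows. A match is a run of letters and does not show that a factor bound there.

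The cell filter, a minimum of 500 genes and a maximum of 10% of UMIs from mitochondrial genes, left 5437 cells in the DMSO library with 38748234 UMIs and 5454 in the MVC library with 35518029 UMIs, and 8 kept barcodes occurred in both. Cells were clustered without the complement genes, so that the members did not define the clusters, and classes were named from fixed markers. Fibro-adipogenic progenitor (FAP)-like cells, the mesenchymal cells between the fibres, numbered 1169 in DMSO and 1423 in MVC muscle. Their name held against their markers, with Pdgfra in 84.7% and 79.6% and Dcn in 99.7% and 99.3% of them, while Ptprc, the pan-leukocyte marker, was detected in 0.770% and 0.422%. The endothelial marker Pecam1 was detected in 13.8% and 16.1% of FAP-like cells, and 3.59% and 4.78% of them were called as doublets. Levels are given as counts per 1000000 UMIs of a class (CPM), a scale on which 1 gene was compared between classes and no gene with another.

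Most transcripts of the components came from fibroblasts. FAP-like cells made up 21.5% (DMSO) and 26.1% (MVC) of the cells, but they held 78.3% (78.0 to 78.6%) of the UMIs of the 8 genes in DMSO and 77.1% (76.7 to 77.5%) in MVC muscle. Tenocyte-like cells, the fibroblasts of tendon and its junctions, held a further 10.7% and 12.6%, and perineurial-like cells, which sheathe the nerve bundles, held 3.06% and 2.27% while making up 1.67% and 1.27% of the cells. Endothelial cell (EC)-like cells were the most numerous class, with 40.6% and 38.1% of the cells, and held 1.04% and 1.17% of these UMIs. By gene, the FAP-like share was highest for C7 (83.4%) and C3 (83.0%) in DMSO and for C3 (82.8%) in MVC muscle, and lowest for C2 in both (49.0% and 45.2%). FAP-like cells were also deeper (median 10396 and 9201 UMIs, against 5802 and 5195 over all cells). They held 12681149 of the 38748234 UMIs of all genes in DMSO and 13541938 of 35518029 in MVC muscle. Of the member UMIs, Serping1 and C3 made up 26530 and 13893 of 58395 in DMSO and 21499 and 13989 of 50853 in MVC.

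**Figure D1:**
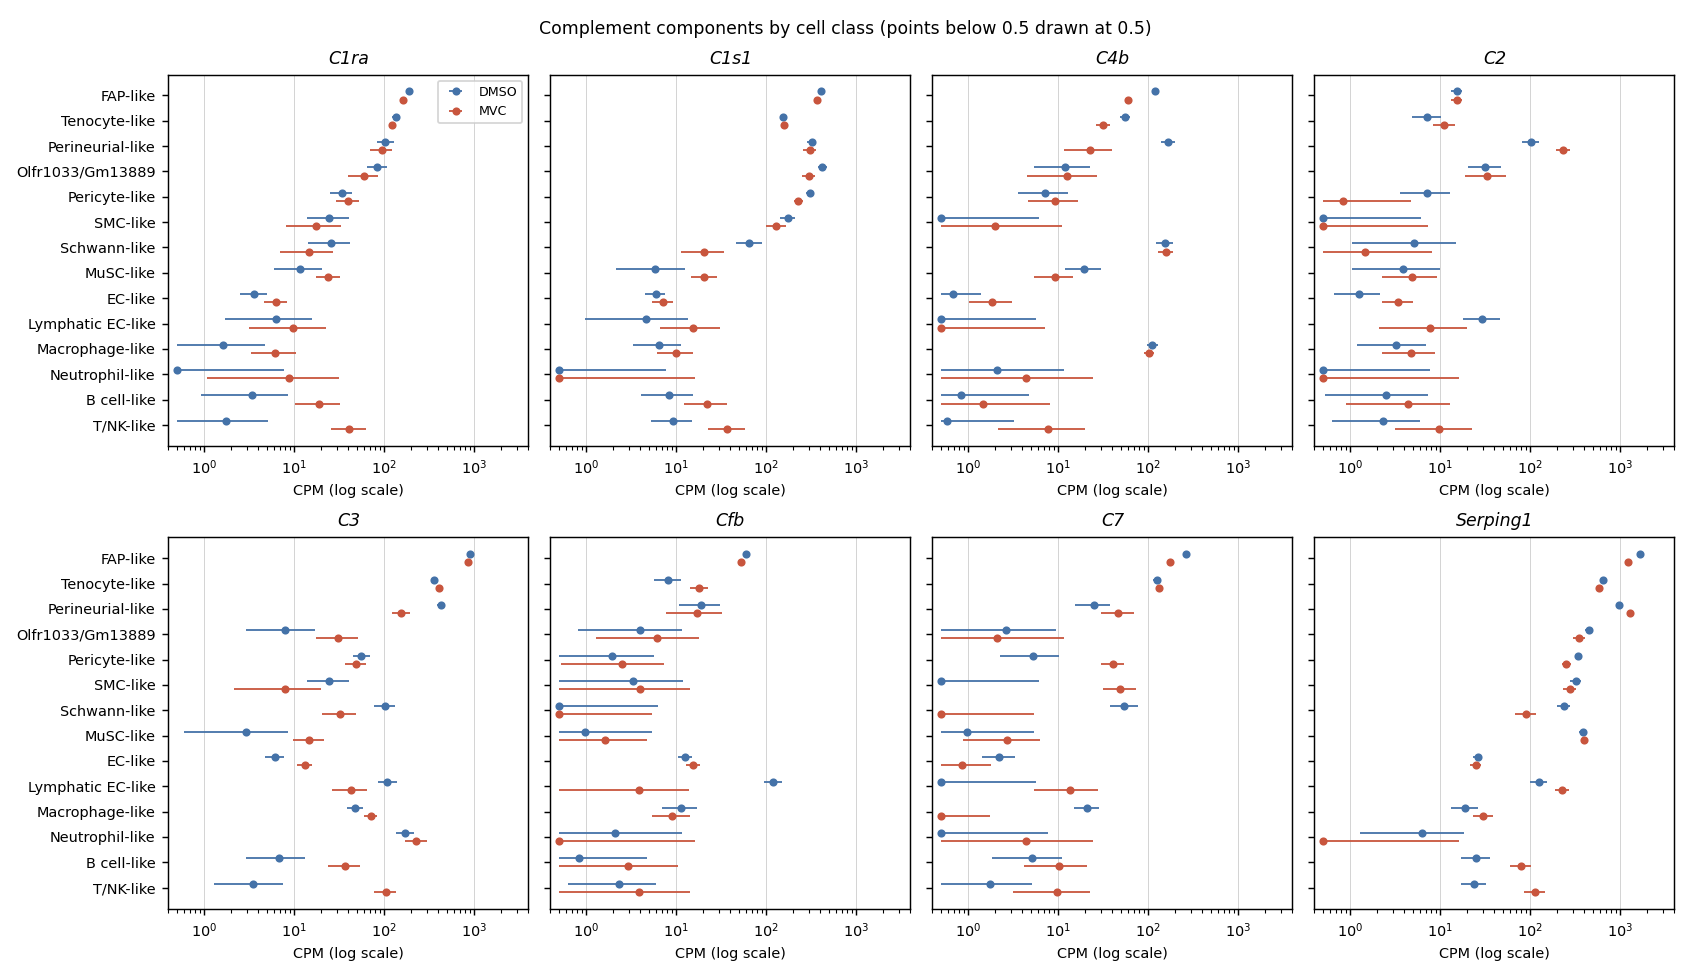
Level of each of the 8 complement components (CPM of summed UMIs, log axis) in 14 cell classes, DMSO in blue and MVC in red, 1 library each. Bars are exact Poisson 95% intervals, counting error only. C1ra, C7 and C3 were highest in FAP-like cells in both libraries, C2 in perineurial-like cells, and C4b was also high in Schwann-like and macrophage-like cells.

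Lymphocytes, taken here as cells that should lack these genes, showed how far transcripts of other cells reached into a class. The 195 DMSO and 61 MVC T/NK-like cells (median depth 7941 and 6747 UMIs) had Serping1 at 23.7 and 113 CPM and C3 at 3.47 and 103 CPM, higher in the MVC library. Most of it sat in few cells, since 3 cells held 72.4% of the Serping1 UMIs of the MVC T/NK-like cells. With called doublets left out the levels were 6.72 and 5.27 CPM for Serping1 in T/NK-like cells and 5.60 and 3.80 CPM in B cell-like cells. Levels of a few CPM in any class were read as this background. The class levels below keep called doublets, and on that basis MVC T/NK-like cells also had C1ra at 41.0 CPM. A level no higher than that of lymphocytes for the same gene and library cannot be told from this background by level alone.

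Of the C1 proteases, C1s1 was found across the mesenchymal classes, while C1ra was highest in FAP-like, tenocyte-like and perineurial-like cells. C1ra was at 188 CPM (180 to 195) in DMSO and 162 CPM (156 to 169) in MVC FAP-like cells, followed in both libraries by tenocyte-like cells (134 and 123 CPM) and perineurial-like cells (103 and 93.5 CPM), and pericyte-like cells, which wrap capillaries, lay at 33.8 and 39.5 CPM. The intervals of the tenocyte-like and perineurial-like levels (123 to 145 and 82.7 to 127 CPM in DMSO) overlapped. C1s1 reached further into mural cells. It was at 405 and 366 CPM in FAP-like, 319 and 303 CPM in perineurial-like, 307 and 228 CPM in pericyte-like and 174 and 130 CPM in smooth muscle cell (SMC)-like cells, and 156 and 157 CPM in tenocyte-like cells. An unnamed cluster led by Olfr1033 and Gm13889, with raised pericyte and SMC markers, had C1s1 at 420 and 298 CPM, at the level of FAP-like cells in DMSO. EC-like cells had C1s1 at 5.90 and 7.13 CPM, within the background.

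C4b, the substrate that C1s cuts, had sources outside the fibroblasts. It was at 118 CPM (112 to 125) in DMSO and 59.7 CPM (55.6 to 63.9) in MVC FAP-like cells. Schwann-like cells, the glia of peripheral nerve, had 153 and 156 CPM from 90 and 107 UMIs, and macrophage-like cells had 111 and 103 CPM from 207 and 216 UMIs, in both cases with no difference between the libraries beyond counting error (MVC over DMSO 1.02, 0.764 to 1.37, and 0.927, 0.763 to 1.13). In macrophage-like cells C4b was spread over 34.9% and 33.3% of the cells. Perineurial-like cells had 166 CPM in DMSO and 22.4 CPM in MVC, but 45.7% of the 140 DMSO UMIs came from 3 cells.

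C2, which is cut together with C4 to form the classical convertase, was highest in perineurial-like cells in both libraries. It was at 102 CPM (86 UMIs in 91 cells) in DMSO and 234 CPM (125 UMIs in 69 cells) in MVC perineurial-like cells, against 15.4 and 15.3 CPM in FAP-like cells. The unnamed Olfr1033/Gm13889 cluster had 31.6 and 33.1 CPM. A UMI of C2 was found in 34.1% of DMSO and 66.7% of MVC perineurial-like cells, and in 17.6% and 37.7% once each cell was thinned to 2000 UMIs.

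C3, the central component of all pathways, was at 909 CPM (892 to 926) in DMSO and 855 CPM (840 to 871) in MVC FAP-like cells, and at 360 and 405 CPM in tenocyte-like cells. Neutrophil-like cells had 171 and 228 CPM, with a UMI in 45.3% and 47.1% of the 64 and 34 cells. Perineurial-like cells had 425 and 155 CPM, and 3 cells held 49.7% and 71.1% of those UMIs. MuSC-like cells, the muscle stem cells, had 2.91 and 14.7 CPM, below the 3.47 and 103 CPM of T/NK-like cells. Cfb, the protease of the alternative convertase, was at 59.1 and 52.7 CPM in FAP-like and at 8.09 and 18.2 CPM in tenocyte-like cells. Within the EC-like class Cfb was highest in the cluster led by the venular genes Selp and Sele, at 51.4 CPM (105 UMIs) in DMSO and 54.5 CPM (88 UMIs) in MVC. The cluster led by Cytl1 and Edn1 had 11.7 and 17.3 CPM, and the other 4 EC-like clusters were between 0 and 3.29 CPM in both libraries. Lymphatic EC-like cells had Cfb at 120 CPM (77 UMIs in 75 cells) in DMSO and 3.85 CPM (2 UMIs in 79 cells) in MVC, with 51.9% of the DMSO UMIs in 3 cells.

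C7, the terminal component, was at 261 CPM (252 to 270) in DMSO and 177 CPM (170 to 184) in MVC FAP-like cells and at 124 and 132 CPM in tenocyte-like cells. Elsewhere it came from single cells, as in MVC pericyte-like cells, where 1 cell held 33 of 48 UMIs, and in DMSO macrophage-like cells, where 1 cell held 34 of 39. Serping1, which encodes the inhibitor of the C1 proteases, was at 1651 CPM (1629 to 1673) in DMSO and 1207 CPM (1189 to 1226) in MVC FAP-like cells. It was the most widely expressed member, with 960 and 1287 CPM in perineurial-like, 646 and 581 CPM in tenocyte-like, 340 and 251 CPM in pericyte-like and 322 and 275 CPM in SMC-like cells. MuSC-like cells had Serping1 at 389 and 398 CPM, with a UMI in 82.6% and 85.2% of them, and in 54.7% and 49.8% at 2000 UMIs per cell. The other 7 members were at 23.9 CPM or less in MuSC-like cells of both libraries. EC-like cells had Serping1 at 26.1 and 24.8 CPM, against 23.7 and 113 CPM in T/NK-like cells.

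The tenocyte-like class fell into 2 clusters with unlike levels. The cluster led by Angptl7 and Fmod had C3 at 748 and 722 CPM, C7 at 237 and 238 CPM and Serping1 at 1084 and 875 CPM. The cluster led by Col22a1 and Thbs4, genes of the muscle-tendon junction, had C3 at 44.5 and 114 CPM, C7 at 31.5 and 33.5 CPM and Serping1 at 290 and 311 CPM, below the Angptl7/Fmod cluster for all 3 genes in both libraries.

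FAP-like cells carried several components at once. With every cell thinned to 2000 UMIs, which left 1124 DMSO and 1302 MVC cells after 45 and 121 shallower cells were left out, a DMSO cell had a median of 3 and an MVC cell a median of 2 of the 8 genes, and 57.9% and 47.6% of the cells had at least 3. Serping1 was detected in 91.8% and 84.6% of these cells, C3 in 58.2% and 55.6%, C1s1 in 54.1% and 50.5%, C1ra in 28.2% and 25.5%, C7 in 25.7% and 15.4%, C4b in 14.0% and 6.91%, Cfb in 9.43% and 7.91% and C2 in 3.38% and 3.76%. Without thinning the shares were 98.4% and 93.6% for Serping1, 47.8% and 27.1% for C7 and 33.9% and 17.0% for C4b, at median depths of 10396 and 9201 UMIs. In thinned T/NK-like cells Serping1 was in 3.65% and 8.77%, C7 in 0.521% and 1.75% and C4b in none of 192 and 57 cells, which allows shares of up to 1.56% and 5.26%.

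**Figure D2:**
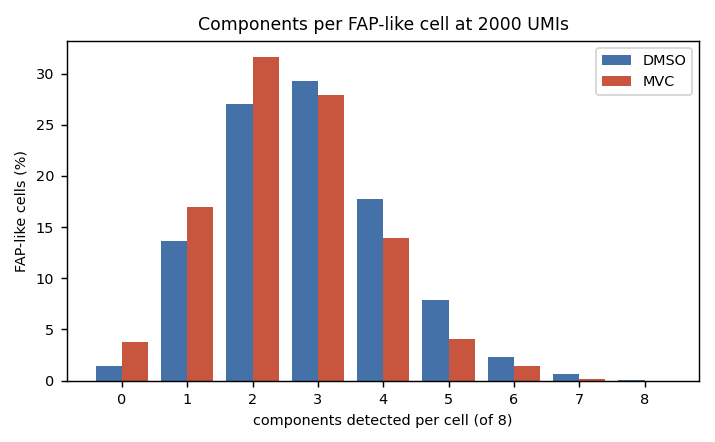
Share of FAP-like cells (%) by the number of the 8 components with a UMI, after each cell was thinned to 2000 UMIs, DMSO in blue (1124 cells) and MVC in red (1302 cells). The DMSO bars peak at 3 components and the MVC bars at 2.

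Within FAP-like cells the components split by fibroblast subtype. Subclusters were again drawn without the complement genes, and 7 of 9 held at least 50 cells in each library. Ranks and folds are given among these 7. The smaller subcluster led by Pde4c, Dnah12 and Rasgef1c (40 and 33 cells) was left out of them and had, in DMSO, C7 at 424 CPM, C4b at 182 CPM, C3 at 1428 CPM, C1ra at 257 CPM and C1s1 at 531 CPM. C7 was the most restricted member. In the subcluster led by Comp, Gdf10 and Cdh11 (252 DMSO and 285 MVC cells) it was at 929 and 675 CPM, 3.53-fold (3.04 to 4.13) above the next of the 7 in DMSO and 3.10-fold (2.71 to 3.54) in MVC, and in the subcluster led by Inpp4b, Trf and Dlk1 (55 and 84 cells) it was at 20.4 and 8.73 CPM. The same Comp/Gdf10/Cdh11 cells were highest for C4b (275 and 179 CPM, 1.90-fold and 1.91-fold above the next), C2 (47.2 and 43.7 CPM) and Cfb (102 and 127 CPM). The median depth of these cells was 6930 and 6470 UMIs, below the 10396 and 9201 of all FAP-like cells, and 0.397% and 1.40% of them were called as doublets. With finer subclusters, 9 of which held at least 50 cells in each library, these genes peaked in different cells. C7 (992 and 795 CPM) and C2 (60.1 and 51.9 CPM) were highest in cells led by Gdf10, Comp and Fmo2. Cfb was highest in cells led by Emb, Ifi203 and Zfp385b (121 and 141 CPM). C4b was highest in the Emb/Ifi203/Zfp385b cells in DMSO (376 CPM) and in the Gdf10/Comp/Fmo2 cells in MVC (176 against 171 CPM).

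C3 followed another axis. It was highest in the subcluster led by Sbsn, Sv2c and Dmkn (216 and 207 cells), in which the adventitial markers Pi16 and Dpp4 were also raised, at 1493 and 1466 CPM, and second among the 7 in the subcluster led by Stmn4, Cmah and Tmem100, which shared those markers, at 1344 and 1213 CPM. The Comp/Gdf10/Cdh11 cells had C3 at 718 and 666 CPM. The lowest level was in Inpp4b/Trf/Dlk1 cells, at 130 and 66.1 CPM, an 11.5-fold (9.09 to 14.8) and a 22.2-fold (16.9 to 29.7) range across subclusters. The same Inpp4b/Trf/Dlk1 cells had C1s1 at 369 and 323 CPM and Serping1 at 1216 and 885 CPM.

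C1ra, C1s1 and Serping1 were spread evenly by comparison. The ratio of the highest to the lowest subcluster was 1.77 and 1.59 for C1ra, 1.26 and 1.31 for C1s1 and 1.80 and 1.67 for Serping1, against 8.82 and 14.3 for C4b and 45.6 and 77.3 for C7. The highest and the second subcluster did not differ beyond counting error for C1ra (1.03, 0.871 to 1.24, in DMSO) or C1s1 (1.02, 0.892 to 1.16, in DMSO). Cells led by the immediate-early and heat shock genes Dnajb1, Egr1 and Hspa1a (200 and 241 cells) had the lowest Cfb, at 24.0 and 22.1 CPM. The part of the response to dissociation in the levels of this subcluster was not tested.

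**Figure D3:**
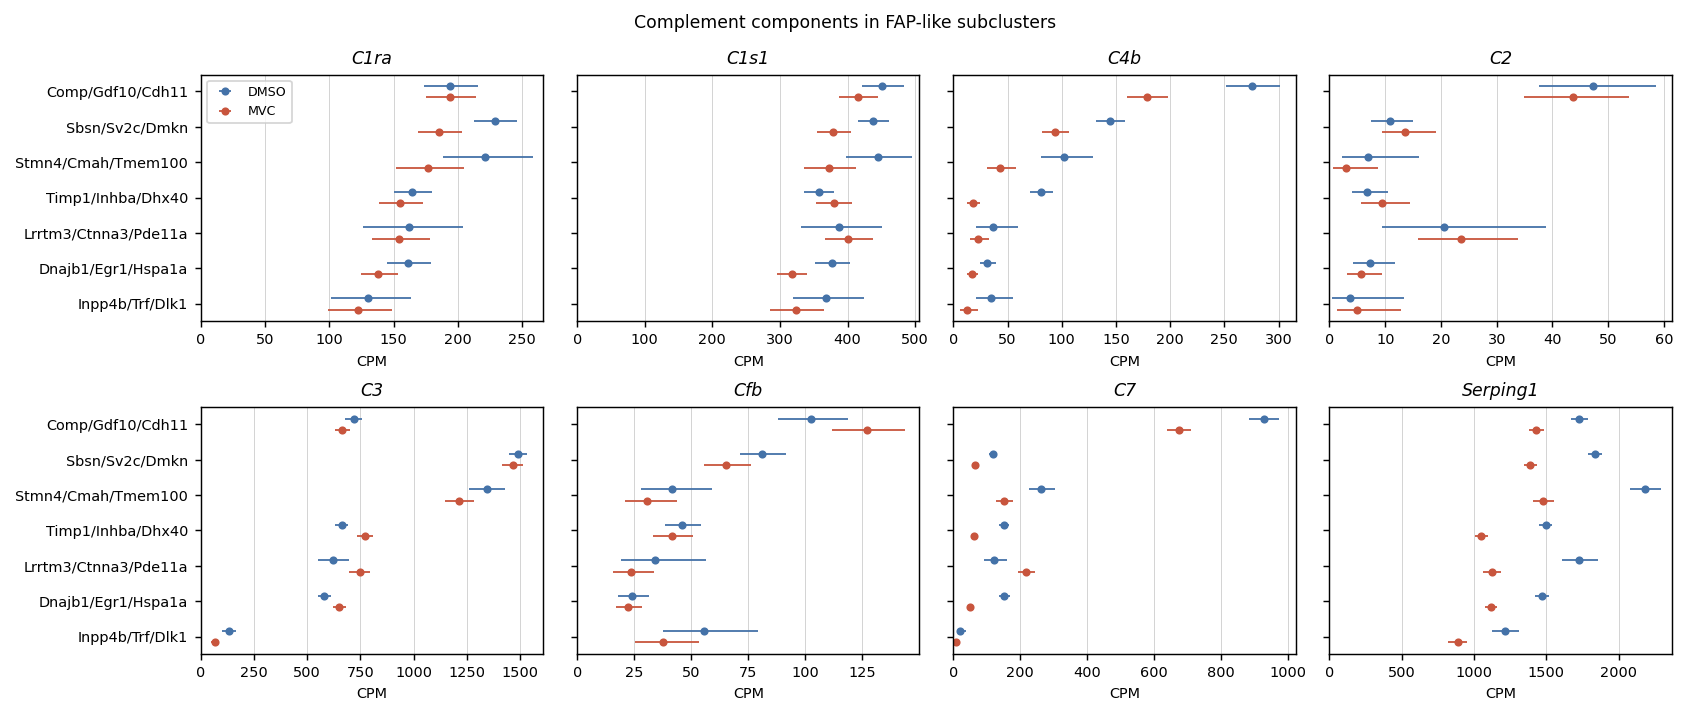
Level of each component (CPM, linear axis from 0) in the 7 FAP-like subclusters with at least 50 cells in each library, named by their 3 leading genes, DMSO in blue and MVC in red, with exact Poisson 95% intervals. C7, C4b, C2 and Cfb peak in the Comp/Gdf10/Cdh11 cells and C3 in the Sbsn/Sv2c/Dmkn and Stmn4/Cmah/Tmem100 cells, and Serping1 is lower in MVC in all 7.

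Between DMSO and MVC muscle, C4b, C7 and Serping1 were lower in MVC FAP-like cells while C2 was at the same level. C4b was at 118 CPM in DMSO and 59.7 CPM in MVC, 1.98-fold lower (ratio 0.504, 0.462 to 0.549). C7 was 1.47-fold lower (ratio 0.678, 0.643 to 0.715) and Serping1 1.37-fold lower (ratio 0.731, 0.716 to 0.746). The ratios of the others were closer to 1, at 0.865 (0.816 to 0.917) for C1ra, 0.904 (0.869 to 0.940) for C1s1, 0.890 (0.802 to 0.988) for Cfb, 0.941 (0.917 to 0.966) for C3 and 0.994 (0.813 to 1.22) for C2. Of the members 1, C4b, was past 1.5-fold lower and none was past 1.5-fold higher. In the same comparison 5.03% of 14958 genes with at least 20 UMIs were past 1.5-fold lower and 15.0% past 1.5-fold higher in MVC. The median log2 ratio of the 8 members was -0.19, against 0.14 over all of these genes. Scaled by the median ratio of genes with at least 50 UMIs, C7 and Serping1 were past 1.5-fold as well, which made 3 members. Serping1 was then only just past it, at a log2 ratio of -0.589. The share of all genes past 1.5-fold on that scale was not computed. On the CPM scale, fewer transcripts of a gene and more of all others cannot be told apart.

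**Figure D4:**
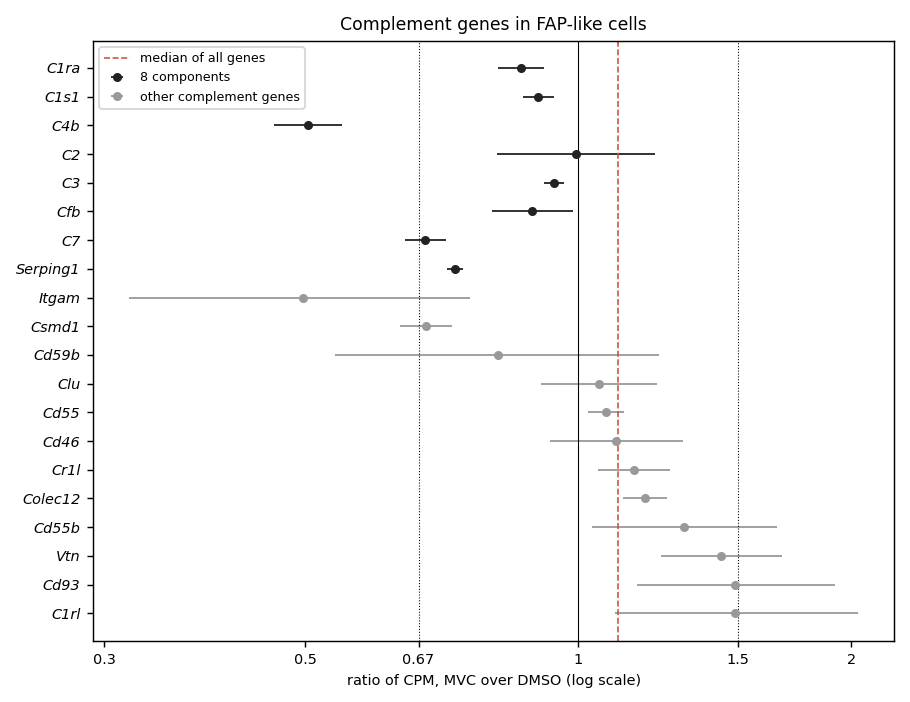
Ratio of CPM, MVC over DMSO (log axis), in FAP-like cells for the 8 components (black) and 12 other complement genes with at least 100 UMIs there (grey), with exact conditional 95% intervals. Dotted lines mark 1.5-fold and the dashed line the median of all genes. C4b and Itgam lie beyond the lower line.

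The lower C4b and Serping1 levels were found across the 7 subclusters. Serping1 was lower in MVC in 7 of 7 subclusters, each with an interval below 1, with ratios from 0.650 to 0.828. C4b was lower in 7 of 7, in 6 with an interval below 1, with ratios from 0.220 in the subcluster led by Timp1, Inhba and Dhx40 (81.1 against 17.9 CPM) to 0.649 in the Comp/Gdf10/Cdh11 cells. C7 was lower in 5 of the 6 subclusters in which it had at least 20 UMIs, down to 0.328 in the Dnajb1/Egr1/Hspa1a cells, and higher in the subcluster led by Lrrtm3, Ctnna3 and Pde11a (ratio 1.77, 1.32 to 2.42), which held 53 DMSO and 177 MVC cells. There 1 cell held 54 of the 268 MVC C7 UMIs, and 1 cell held 15 of the 54 DMSO C7 UMIs. A C7 UMI was found in 30.2% of these DMSO cells and 20.3% of the MVC cells, and in 13.5% and 10.2% when thinned. The higher MVC level thus did not come with a larger share of cells with C7. With finer subclusters the matching cells (47 DMSO and 168 MVC) were led by Lrrtm3, Ctnna3 and St6galnac5. They had more C7 in MVC (ratio 2.18, 1.53 to 3.19), which is not an independent reading. C7 was lower in the 9 finer subclusters with at least 50 cells in each library. Among those 9, C4b was lower in 8. The exception was led by Gdf10, Comp and Fmo2, with C4b at 161 and 176 CPM (ratio 1.10, 0.883 to 1.36). C3 went both ways, with intervals below 1 in 2 and above 1 in 3 of 7 subclusters and a median ratio of 0.982. At the subcluster make-up of the DMSO library the log2 ratio was -0.89 for C4b, -0.70 for C7, -0.43 for Serping1 and 0.02 for C3.

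Of the 48 other genes of the complement system, 22 had at least 20 UMIs in FAP-like cells. Of these 22, 4 were past 1.5-fold lower and 2 past 1.5-fold higher in MVC, with a median log2 ratio of 0.17. Over all genes with at least 20 UMIs there, 5.03% were past 1.5-fold lower and 15.0% past 1.5-fold higher. Itgam, a chain of complement receptor 3, was at 5.20 and 2.58 CPM in FAP-like cells against 1233 and 1387 CPM in neutrophil-like cells. Cfd and Masp2, which were lower, and C1qa and Colec10, which were higher, were named after their values were seen and were at 4.10 CPM or less in both libraries. Of the membrane regulators that shield host cells, Cd55 had a ratio of 1.07, Cd46 of 1.10, Cr1l of 1.15, Cd55b of 1.31 and Cd59b of 0.815. Csmd1, a large membrane regulator, was at 0.679, Colec12, a scavenger receptor of the collectin family, at 1.19, Clu at 1.05, Vtn at 1.44, C1rl at 1.49 and the receptor Cd93 at 1.49.

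Most other steps of the cascade had few or no UMIs in FAP-like cells, and the genes named for them here were chosen after their values were seen. C1q, which starts the classical pathway, came from macrophage-like cells, which held 96.8% of the C1qa, 97.1% of the C1qb and 97.7% of the C1qc UMIs. Of the terminal components FAP-like cells had C7, but Hc, which encodes C5, had 1 and 1 UMIs there, C6 had 2 and 0, C8a and C8b had 0, and C9 had 18 and 13. A count of 0 allows up to 3 UMIs, or 0.237 CPM in DMSO and 0.222 CPM in MVC FAP-like cells. Cfi, the protease that cuts C3b and C4b, had 1 and 1 UMIs. The receptors C3ar1 and C5ar1 were in macrophage-like cells, with 93.1% and 80.8% of their UMIs.

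In tenocyte-like cells C4b was lower in MVC (55.7 and 31.5 CPM, ratio 0.567, 0.456 to 0.702), and Cfb was higher (ratio 2.24, 1.48 to 3.46). C2 had a ratio of 1.56 (30 and 49 UMIs) with an interval that included 1 (0.969 to 2.54), and its log2 ratio was -0.10 once cells were thinned to 2000 UMIs. With C2 counted, 3 of 8 members were past 1.5-fold in either direction against 20.6% of all genes. In the Col22a1/Thbs4 cluster C3 was at 44.5 and 114 CPM and C4b at 26.3 and 3.05 CPM, but 1 cell held 53 of the 61 DMSO C4b UMIs. Without the 10 cells of each library with most C4b UMIs, C4b in the tenocyte-like class was at 25.9 and 14.0 CPM. In pericyte-like cells C1s1 (ratio 0.742, 0.637 to 0.863) and Serping1 (0.740, 0.640 to 0.855) were lower, and 1 of 6 members, C7, was past 1.5-fold, against 22.6%. The median depth of pericyte-like cells was 4190 UMIs in DMSO and 2865 in MVC, and 11.7% and 9.79% were called as doublets.

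In perineurial-like cells 4 of 8 members were past 1.5-fold against 35.8% of all genes, C4b and C3 lower and C2 and C7 higher. Without the 10 cells of each library with most UMIs of the gene, C2 was at 47.5 and 177 CPM, C3 at 47.6 and 2.54 CPM and C4b at 16.8 and 0 CPM. With the complement genes kept in the clustering, C4b and C3 of the perineurial-like class were higher in MVC instead (log2 ratios of 1.05 and 2.36). In Schwann-like cells 5 of 6 members were past 1.5-fold, all lower in MVC, against 27.9%. They were C1ra, C1s1, C3, C7 and Serping1, and of 32 C7 UMIs in DMSO 30 came from 1 cell. Without the 10 cells C1s1 was at 2.03 and 0 CPM and Serping1 at 48.3 and 28.6 CPM, while C4b stood at 90.7 and 91.4 CPM, and 17.2% of the DMSO and 11.8% of the MVC Schwann-like cells were called as doublets. The part of doublets in these differences was not tested beyond leaving out called doublets, which is given for Serping1 further below. In lymphatic EC-like cells 4 of 4 members with at least 20 UMIs were past 1.5-fold against 29.4%. C2, C3 and Cfb were lower and Serping1 was higher (124 and 227 CPM). Without the 10 cells C2 was at 0 CPM in both libraries, C3 at 8.33 and 4.49 CPM and Cfb at 19.4 and 0 CPM. These cells were picked by the UMIs of the gene itself, so leaving them out lowers any level. C3 and Cfb were still lower in MVC, but from 6 and 9 UMIs in all, while Serping1 was at 69.3 and 143 CPM from 95 UMIs.

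Across 19 classes and subclusters in each library, 38 points in all, each member was compared with 10374 genes. Pearson r of log2(CPM + 10) is given as a description, since points share their library and the fibroblast subclusters share their origin. C1ra was most like Tbx15 (r = 0.947), Gsn (0.946) and Mfap5 (0.941), and C1s1 most like Slit3 (0.955), Tbx15 (0.937) and Shox2 (0.936). The closest pairs of members were C1ra with Serping1 (0.935) and C1ra with C1s1 (0.935), the proteases and their inhibitor. Serping1 was most like Fstl1 (0.945), Tnxb (0.925) and Bicc1 (0.918), C3 most like Lrrn4cl (0.896), Adgrd1 (0.880) and Pcolce2 (0.880), and C7 most like Pcolce2 (0.833), Ccdc80 (0.831) and Fbln1 (0.816). C4b (Pla2g4a 0.771, Metrnl 0.718, Pmp22 0.689), Cfb (Lbp 0.818, Mgst1 0.781, Cyp1b1 0.757) and C2 (Klf5 0.757, Fhl2 0.751, Slc1a3 0.710) followed other genes less closely. C2 and Cfb, 85 bases apart in the genome, had r = 0.392.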

How the data were processed

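Groups were taken from the treatment per the labels, 1 library each, so no paired or replicated test was run. The deposited values were raw UMI counts per gene and cell barcode, not normalised; the submitters' processing notes name Cell Ranger 7.0.0, Seurat 5.0.1 and mm10 without their roles, and how intronic reads were counted was not given in the sources used here. From these counts, cells were scaled to 10000 UMIs and log-transformed, and 2000 variable genes without complement genes were clustered (scanpy 1.11.5, 30 components, 20 neighbours, Leiden resolution 1); FAP-like cells were reclustered at resolution 0.4, a value chosen after seeing the data. A class name needed at least 3 markers with a log2 fold of at least 1 in at least 20% of cells. Names were rebuilt and may differ from the study's. Doublets, scored against simulated ones, were kept and removed in an alternative. Free RNA was not corrected.

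Levels were summed UMIs per 1000000 with exact Poisson intervals, shares had exact Clopper-Pearson intervals, and ratios exact conditional ones (95%, counting error only; a count of 0 allows 3). A gene was called past 1.5-fold with at least 20 UMIs in the class, and ratios needed at least 50 cells in each library. The ratio interval was tested on simulated Poisson counts. These hold no clumping of UMIs in single cells, so that run does not show how the interval fares with it. All members were named; of 48 other complement genes those with at least 100 UMIs in FAP-like cells were named, with C4a, C1rb and C1s2, and the 3 genes most alike among those with at least 500 UMIs. In addition, 1 gene of the list is counted but not reported here. The members and lists were chosen with earlier results of these data known. Alternatives were a stricter filter (1000 genes, 5%), doublet removal, other clusterings, per-cell means, another scaling, leaving out 10 cells per library, thinning to 2000 UMIs and paralog sums.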

Additional observations from a re-analysis of the deposited data

Results flagged for a closer look

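Serping1 differed in opposite directions between DMSO and MVC muscle in 2 classes, in each past 1.5-fold with an interval that did not include 1. Without the 10 cells of each library with most Serping1 UMIs the log2 ratio was -0.76 in Schwann-like cells, from 41 UMIs in all, and 1.05 in lymphatic EC-like cells, and without called doublets it was -1.26 and 0.65. In Schwann-like cells the ratio MVC over DMSO was 0.379 (235 and 89.2 CPM, from 138 and 61 UMIs). In lymphatic EC-like cells it was 1.83 (124 and 227 CPM, from 80 and 118 UMIs). With 1 library per group the difference between the classes was not tested, and these classes held 99 and 127 and 75 and 79 cells.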

How the results depend on the processing

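No paired analysis was possible because each group held 1 library. Of 733 alternative values for 107 member ratios, 646 moved by less than the counting error of the ratio, 81 moved by more and 6 reversed. In FAP-like cells the log2 ratio stayed between -1.23 and -0.89 for C4b, -0.70 and -0.51 for C7 and -0.59 and -0.43 for Serping1. The share of member UMIs in FAP-like cells (78.3% in DMSO, 77.1% in MVC) was 78.7% and 77.5% with a stricter cell filter, 79.8% and 78.4% without doublets, 80.3% and 79.3% with clusters after centring each library, and 77.8% and 76.0% without the doublet-rich Fabp4/Aqp1/Cd36 subcluster. The summed log2 ratio of the members (-0.32) was -0.45 with scaling by the median ratio and -0.27 at the subcluster make-up of DMSO, and their median (-0.19) was -0.33 with that scaling. Members past 1.5-fold lower (1) numbered 3 with that scaling and 2 without the 10 cells with most UMIs, when thinned, and at the make-up of DMSO. The share of all genes past 1.5-fold was not computed for these settings. Of the complement list, 5 genes lower became 9 with that scaling, 12 with a minimum of 1 UMI and 3 with a minimum of 100. The 2 higher became 6 without doublets, 4 with per-cell means, 5 without the 10 cells, 11 with a minimum of 1 UMI, 0 with a minimum of 100, 5 without the Fabp4/Aqp1/Cd36 subcluster and 4 at the make-up of DMSO. With complement genes kept in the clustering, the log2 ratio in perineurial-like cells reversed to 1.05 for C4b and 2.36 for C3, and that of C3 in the Olfr1033/Gm13889 cluster to -3.39; without doublets the latter was -0.38. C2 in tenocyte-like cells was -0.10 when thinned, and C4b in Lrrtm3/Ctnna3/Pde11a cells 0.35 without the 10 cells. The causes were not tested. The Fabp4/Aqp1/Cd36, make-up and finer-subcluster alternatives were chosen after seeing the data. Depth limits thinned values, since 99 of 286 MVC pericyte-like cells held fewer than 2000 UMIs.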
